A study of Mus musculus with 6 samples.

Results

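The enzymes that make serine from a glycolytic intermediate and pass a carbon of it to folate were examined in RAW 264.7 cells, a mouse macrophage-like cell line of BALB/c origin. The members were the rows of the deposited gene count table with the symbols Phgdh, Psat1, Psph, Shmt1, Shmt2, Mthfd1, Mthfd2, Mthfd1l and Aldh1l2, and all 9 were found among the 22192 genes listed. Polyadenylated RNA was sequenced from 3 libraries labelled control and from 3 labelled ASPS-A1, whose cells were kept for 24 h in medium with 200 µg/mL of this polysaccharide. ASPS-A1 is a gel-filtered acidic fraction from leaves of the shrub Acanthopanax senticosus. What the control cells received is not given in the sources used here. The libraries of a group are not stated to come from separate cultures, so p-values set a change against the spread between these libraries, which may be technical. In the test of single genes below, that spread is estimated in part from all genes tested.

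Serine synthesis is a branch from glycolysis. Phgdh oxidizes 3-phosphoglycerate, Psat1 transfers an amino group from glutamate, and Psph removes the phosphate to release serine, all in the cytosol. A serine hydroxymethyltransferase then splits serine into glycine and a carbon unit carried by tetrahydrofolate, in the cytosol by Shmt1 and in mitochondria by Shmt2. In mitochondria Mthfd2 oxidizes the folate-bound unit, Mthfd1l releases it as formate, and Aldh1l2 can burn it to carbon dioxide while making NADPH. Formate that leaves the mitochondria is taken up again in the cytosol by Mthfd1, a trifunctional enzyme that feeds purine, thymidylate and methyl group synthesis. Several of these genes are known targets of ATF4, the transcription factor of the amino acid and integrated stress response.

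Library totals ran from 19989318 to 26137127 counts, and each ASPS-A1 total was below each control total. All 8 macrophage markers of the fixed list were detected, with a summed level of 2189 to 2210 CPM (normalised read counts relative to the scaled library size) in control and 3076 to 3190 CPM with ASPS-A1. Summed fibroblast markers were at most 0.815 CPM, epithelial markers at most 0.116 CPM with Epcam and Krt8 at 0 counts, and T cell markers at most 0.652 CPM with Cd3e and Cd3g at 0. The 4 B cell markers summed to 30.1 to 38.3 CPM. The rise of the macrophage marker sum with treatment stands beside each rise below, and its part in them was not tested.

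All 9 enzymes passed the filter on low counts, the lowest single value being 357 counts for Shmt1. With ASPS-A1, 7 rose, 1 fell (Shmt1) and 1 was not called (Mthfd1), at an adjusted p under 0.05 from edgeR's quasi-likelihood test over 11686 genes. Of all genes tested, 32.4% rose and 33.0% fell by the same rule, 65.3% in all, so a call alone is common in this comparison. For 8 of the 9 enzymes, and for 68.5% of all genes tested, the treated and control libraries held separate ranges of values. The median log2 fold change of the 9 was 0.54, against −0.02 for all genes tested, and with scaling by library totals alone these medians were 0.35 and −0.22. The 9 transcripts together took 0.150% to 0.166% of all counts in control and 0.232% to 0.241% with ASPS-A1. All 3 serine synthesis enzymes and all 4 mitochondrial folate enzymes rose, while neither of the 2 cytosolic folate enzymes did, and with scaling by library totals alone Mthfd1l (0.013) was no longer called and Mthfd1 fell (−0.15). In bulk RNA, a change in the number of cells of a type and a change in RNA per cell cannot be told apart.

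**Figure D1:**
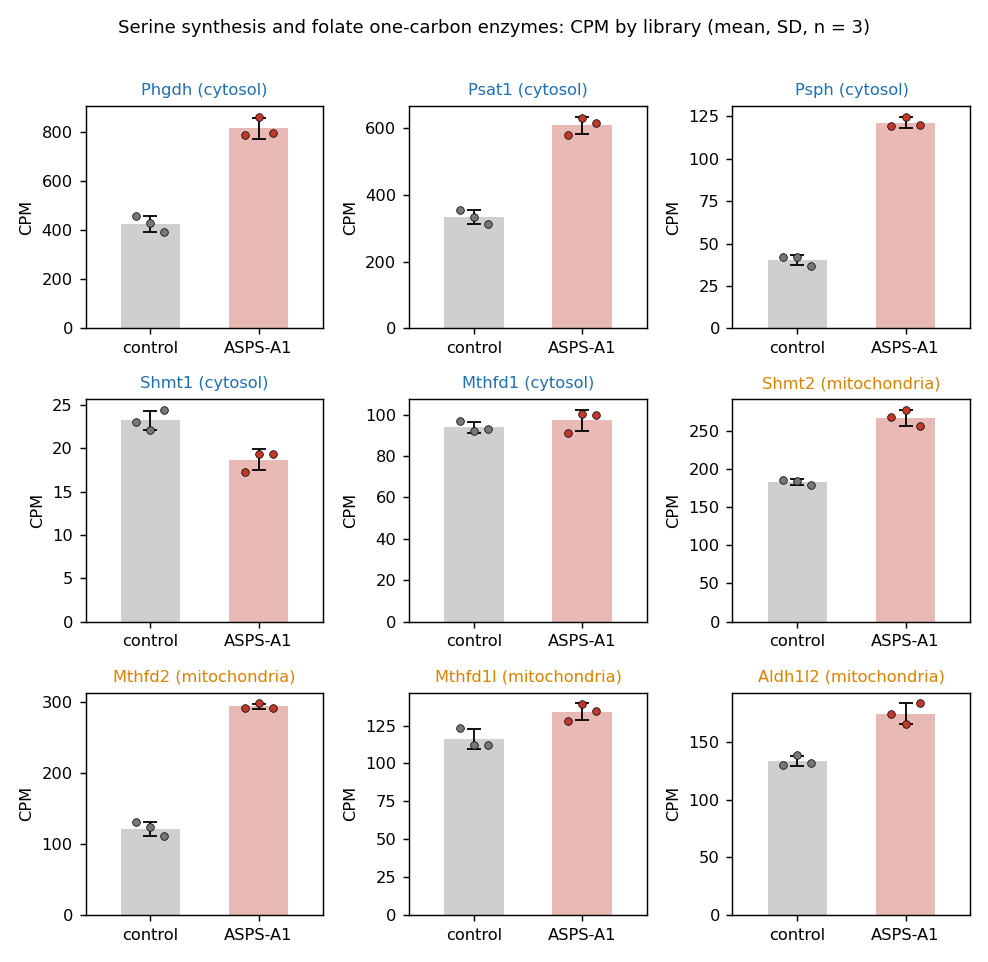
Normalised level (CPM, y axes starting at 0) of each enzyme transcript in control and ASPS-A1 libraries. Points are libraries, bars are group means and error bars are SD (n = 3 per group). The groups do not overlap for 8 of the enzymes, and they overlap for Mthfd1.

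The 3 strongest risers for which promoter sequence outside annotated exons was at hand, Phgdh, Psat1 and Mthfd2, are shown beside Shmt1, the enzyme that fell, so that the sequence just before their start sites can be compared. Sequences are from RefSeq on GRCm38.p6, 5′ to 3′ on the gene's strand, all 4 genes lying on the minus strand. They hold the exon-free stretch within 250 bases before the start site, at chr3:98339991-98340219 for Phgdh, chr19:15925060-15925309 for Psat1, chr6:83317607-83317854 for Mthfd2 and chr11:60811266-60811466 for Shmt1. Capitals mark CCAAT, the CCAAT box, on either strand (ATTGG is its reverse complement).
Phgdh: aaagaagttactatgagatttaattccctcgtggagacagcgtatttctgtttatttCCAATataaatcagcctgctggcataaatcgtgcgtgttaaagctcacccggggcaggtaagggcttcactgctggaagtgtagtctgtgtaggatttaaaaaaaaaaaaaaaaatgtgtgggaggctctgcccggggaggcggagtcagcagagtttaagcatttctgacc
Psat1: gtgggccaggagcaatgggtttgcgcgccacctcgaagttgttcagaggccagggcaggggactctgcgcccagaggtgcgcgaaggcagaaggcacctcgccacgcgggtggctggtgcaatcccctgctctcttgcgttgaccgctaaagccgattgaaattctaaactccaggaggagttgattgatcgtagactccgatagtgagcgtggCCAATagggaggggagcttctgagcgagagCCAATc
Mthfd2: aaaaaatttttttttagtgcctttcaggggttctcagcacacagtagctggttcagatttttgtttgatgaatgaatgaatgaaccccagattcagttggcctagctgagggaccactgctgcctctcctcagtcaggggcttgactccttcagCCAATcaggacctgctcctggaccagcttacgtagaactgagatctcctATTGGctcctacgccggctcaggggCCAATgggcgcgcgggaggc
Shmt1: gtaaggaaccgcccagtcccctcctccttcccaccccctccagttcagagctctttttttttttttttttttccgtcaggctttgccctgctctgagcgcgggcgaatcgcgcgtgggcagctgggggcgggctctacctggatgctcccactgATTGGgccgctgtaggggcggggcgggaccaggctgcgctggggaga

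RefSeq promoter windows were found for 8 of the 9 enzymes, with Aldh1l2 the missing entry. Psat1 has 2 start sites and so 2 windows, of which the upstream one is shown, which makes 9 windows in all. CCAAT was searched on both strands of the 250 bases before the start and was present in 6 of the 9 windows (Phgdh, the upstream window of Psat1, Psph, Shmt1, Mthfd1 and Mthfd2), against 33.8% of all 32851 windows of that length. In the sequences shown, Mthfd2 had 3 matches, at 96, 47 and 22 bases before the start, and Psat1 had 2, at 36 and 6 bases. Phgdh had 1 match in the sequence shown, at 193 bases, and 2 in its full 250 bases. Shmt1, which fell, had 1 match, at 47 bases, and Shmt2 and Mthfd1l, which rose, had none. The bases after the start in the Mthfd1 and Mthfd1l entries were found in 0 GENCODE M21 transcripts of these genes, so their start sites are less sure. TGATGNAA, the core of the element bound by ATF4 with C/EBP partners, was in 0 of the 9 windows and in 3.45% of all windows. CACGTG, the E-box bound by MYC and related factors, was also in 0 of the 9, against 6.02% of all windows. These letters were absent from these windows only, and a match is not a measured binding site. None of the 3 motifs was in every enzyme that rose and missing from Shmt1.

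All 3 serine synthesis transcripts rose. Phgdh, which commits carbon to the pathway, was at 784, 861 and 794 CPM in ASPS-A1 replicates 1, 2 and 3 and at 457, 428 and 391 CPM in the control replicates. The lowest treated library was well above the highest control library. The change was 1.91-fold (log2 fold change 0.93 ± 0.05 SE, adjusted p = 5.84e-20, edgeR).

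Psat1, the aminotransferase of the middle step, was at 580, 631 and 615 CPM with ASPS-A1 and at 354, 334 and 314 CPM in control. The groups did not overlap, as for 33.7% of all genes tested in the upward direction, and the rise was 1.82-fold (log2 fold change 0.87 ± 0.05 SE, adjusted p = 4.98e-20, edgeR). Psph, the phosphatase that releases free serine, was at 119, 125 and 120 CPM with ASPS-A1 and at 42.3, 42.0 and 36.7 CPM in control. Its treated libraries lay close together and far above the controls, a 3.01-fold rise (log2 fold change 1.59 ± 0.06 SE, adjusted p = 1.34e-26, edgeR). Among all genes tested, the log2 fold change of Psph stood at the 98.8th percentile, that of Phgdh at the 95.5th and that of Psat1 at the 94.3rd.

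Per transcript length, Psph was the least abundant of the 3 transcripts in both groups. Counts of Psph per count of Phgdh were 0.152, 0.145 and 0.151 in the ASPS-A1 libraries and 0.0925, 0.0982 and 0.0939 in control. This ratio was chosen after its values were seen and is given without a test. Of the Psph exon length in GENCODE M21, 26.1% is shared with the neighbouring chaperonin gene Cct6a, which rose from 272 to 502 CPM. Whether the counting used strand is not known from the sources used here, and the part of shared reads in the Psph value was not tested.

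The mitochondrial folate enzymes rose by different amounts. Mthfd2, the dehydrogenase and cyclohydrolase that oxidizes the folate-bound carbon, was at 292, 299 and 291 CPM with ASPS-A1 and at 131, 124 and 111 CPM in control. This was a 2.42-fold rise with no overlap (log2 fold change 1.27 ± 0.05 SE, adjusted p = 1.92e-25, edgeR), at the 98.0th percentile of all genes tested. Shmt2, the mitochondrial hydroxymethyltransferase, was at 267, 277 and 256 CPM with ASPS-A1 and at 186, 184 and 178 CPM in control. It rose 1.46-fold (log2 fold change 0.54 ± 0.05 SE, adjusted p = 5.13e-14, edgeR), and the groups were again separate.

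Aldh1l2, the 10-formyltetrahydrofolate dehydrogenase of mitochondria, was at 175, 166 and 184 CPM with ASPS-A1 and at 130, 139 and 132 CPM in control. The rise was 1.31-fold (log2 fold change 0.39 ± 0.05 SE, adjusted p = 4.12e-09, edgeR), with 17.3% of its exon length shared with D10Wsu102e. Its log2 fold change was 0.19 with scaling by library totals alone and 0.60 once offsets removed the trend with transcript length and GC content. Mthfd1l, the mitochondrial formyltetrahydrofolate synthetase, was at 128, 140 and 135 CPM with ASPS-A1 and at 124, 112 and 112 CPM in control. Its groups were separate by a narrow margin, 128 against 124 CPM. The change was 1.16-fold (log2 fold change 0.21 ± 0.05 SE, adjusted p = 0.00057, edgeR), and with scaling by library totals it was 0.013 (adjusted p = 0.839).

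Within the mitochondrial set, the counts of Mthfd2 per count of Shmt2 were 1.09, 1.08 and 1.14 with ASPS-A1 and 0.703, 0.670 and 0.622 in control. Mthfd2 counts per count of Mthfd1l were 2.28, 2.14 and 2.16 with ASPS-A1 and 1.06, 1.10 and 0.986 in control. Both ratios were chosen after their values were seen and are descriptions. Both were higher in each treated library than in each control library.

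The cytosolic folate enzymes did not rise. Shmt1, the cytosolic hydroxymethyltransferase, was at 17.3, 19.4 and 19.4 CPM with ASPS-A1 and at 23.1, 22.2 and 24.5 CPM in control. All treated libraries were below all control libraries, as for 34.8% of all genes tested, and the fall was 1.24-fold (log2 fold change −0.32 ± 0.09 SE, adjusted p = 0.00246, edgeR). With scaling by library totals the value was −0.51. Of the Shmt1 exon length, 6.44% is shared with Smcr8, itself at −0.08 on the log2 scale (adjusted p = 0.342).

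Mthfd1, the trifunctional cytosolic enzyme, was at 91.3, 100.3 and 100.1 CPM with ASPS-A1 and at 97.0, 92.0 and 92.9 CPM in control. The groups overlapped, and the log2 fold change was 0.05 ± 0.06 SE (adjusted p = 0.458, edgeR). Scaling by library totals gave −0.15 (adjusted p = 0.0177), which would add it to the fallen members. That scaling lowers the median of all genes from −0.02 to −0.22, so relative to the median of all genes Mthfd1 stayed slightly above 0 under both.

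**Figure D2:**
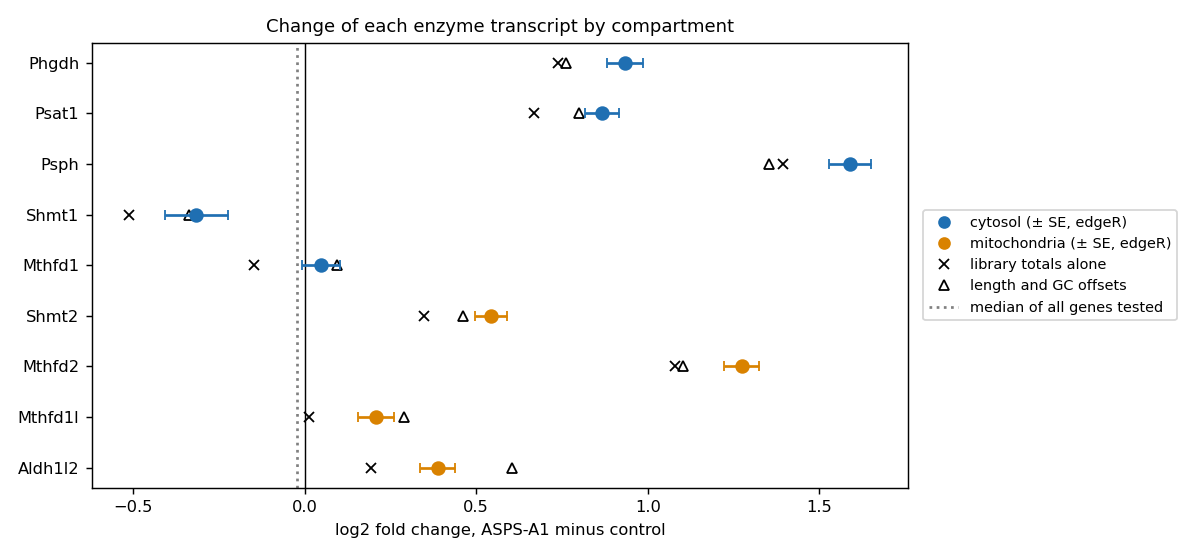
Log2 fold change of each enzyme (x axis, ASPS-A1 minus control), with the edgeR estimate and its SE as a filled circle coloured by compartment, crosses for scaling by library totals alone and triangles for fits with length and GC offsets. The 3 serine synthesis enzymes and Mthfd2 lie furthest to the right under each setting, between 0.67 and 1.59, and Shmt1 lies to the left of 0.

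The cytosolic and mitochondrial enzymes were compared inside each library, where a ratio of counts does not depend on how libraries are scaled. Such a ratio can still hold a trend with transcript length and GC content that differs between libraries, which was not removed from it. Counts of Shmt2 per count of Shmt1 were 15.4, 14.3 and 13.2 with ASPS-A1 and 8.06, 8.31 and 7.29 in control. The mean log2 ratio rose from 2.98 ± 0.10 to 3.83 ± 0.11 (SD, n = 3), a 1.81-fold shift towards the mitochondrial enzyme with no overlap between groups. Counts of Mthfd2 per count of Mthfd1 were 3.20, 2.98 and 2.91 with ASPS-A1 and 1.35, 1.34 and 1.19 in control, a shift of 1.23 in the log2 ratio or 2.34-fold. Counts of Mthfd1l per count of Mthfd1 were 1.41, 1.39 and 1.35 with ASPS-A1 and 1.28, 1.22 and 1.21 in control, a smaller shift of 0.16 or 1.12-fold. Each of the 3 ratios was higher in every treated library than in every control library. The exact two-sided permutation test gave p = 0.1 for each ratio and 0.1 after Benjamini-Hochberg adjustment over the 3, and 0.1 is the smallest p that 3 libraries against 3 allow.

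**Figure D3:**
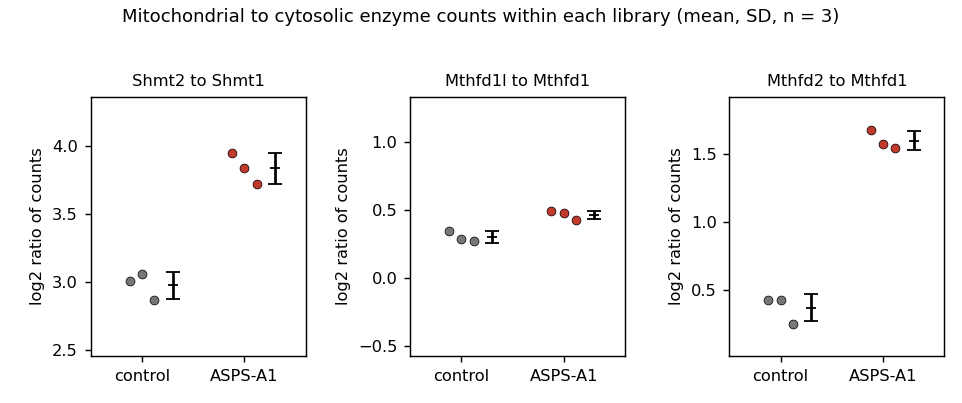
Log2 ratio of the counts of a mitochondrial enzyme to those of a cytosolic enzyme within each library (y axes, each spanning the same log2 range). Points are libraries, with the group mean and SD (n = 3) beside them. The treated libraries lie above all control libraries in each panel, by 0.86 on average for Shmt2 to Shmt1, 0.16 for Mthfd1l to Mthfd1 and 1.23 for Mthfd2 to Mthfd1.

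Levels can be compared between genes once divided by transcript length, taken here from GENCODE M21. Per kilobase of transcript, Phgdh had the highest level of the 9 in control at 225 ± 17.5 CPM per kb (SD, n = 3), followed by Psat1 at 128, Shmt2 at 79.9, Mthfd2 at 58.4, Mthfd1l at 31.5, Mthfd1 at 29.0, Psph at 23.3, Aldh1l2 at 22.2 and Shmt1 at 8.13 CPM per kb. Of these neighbours, Psph and Aldh1l2 overlapped between libraries and the others did not. With ASPS-A1 the order was Phgdh at 429, Psat1 at 233, Mthfd2 at 141, Shmt2 at 116, Psph at 70.0, Mthfd1l at 36.4, Mthfd1 at 30.0, Aldh1l2 at 29.0 and Shmt1 at 6.54 CPM per kb. Here Mthfd1 and Aldh1l2 overlapped. Between the groups, Mthfd2 moved above Shmt2, and Psph moved above Mthfd1l and Mthfd1. The Psph levels may hold reads shared with Cct6a (26.1% of its exon length), and their part in this order was not tested.

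Per length, Shmt2 made up 90.8% ± 0.584 of the Shmt1 and Shmt2 transcripts in control and 94.7% ± 0.397 with ASPS-A1 (SD, n = 3). Phgdh was at the 97.9th percentile of control levels per kb among genes with a known length, and Shmt1 at the 46.9th. The transcript of the cytosolic hydroxymethyltransferase was thus the minor one of the pair in both groups.

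Other genes of folate metabolism moved in both directions. Of 17 listed, 13 were tested, and 5 rose, 2 fell and 6 did not pass the test, near the 32.4% of all genes that rose and below the 33.0% that fell. Their median log2 fold change was 0.16, or −0.039 with scaling by library totals. Tyms, which uses a folate carbon to make thymidylate, rose from 29.6 ± 3.57 to 55.9 ± 1.05 CPM (log2 fold change 0.92). Mthfd2l, the paralog of Mthfd2, rose from 3.64 to 6.27 CPM (0.78). Atic (0.25, or 0.051 with scaling by library totals, adjusted p = 0.392), which uses formyl folate for purines, and the folate carrier Slc19a1 (0.52) also rose.

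Slc25a32, the mitochondrial folate carrier, was at 21.6 CPM in control and 19.8 CPM with ASPS-A1 (log2 fold change −0.12, adjusted p = 0.25, edgeR). With scaling by library totals it was called as fallen (−0.31, adjusted p = 0.00272, edgeR), and with the length and GC offsets it had 0.037. Mtfmt, which formylates the mitochondrial initiator tRNA, fell (−0.37), a call lost without ASPS-A1 replicate 1 (−0.22, adjusted p = 0.13). The other fallen gene was the folate transporter Slc46a1, with 5, 6 and 1 counts in the ASPS-A1 libraries and 21, 14 and 16 in control. Its call was lost without ASPS-A1 replicate 3 or control replicate 1 (adjusted p = 0.0962 and 0.0708). Aldh1l1, the cytosolic counterpart of Aldh1l2, was too low to test, with 4, 0 and 1 counts with ASPS-A1 and 14, 6 and 7 in control.

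Glycine cleavage and mitochondrial serine entry genes moved both ways. Of 6 tested, 4 rose and 2 fell, against 32.4% and 33.0% of all genes. Their median of 0.40 became 0.21 with scaling by library totals, 0.20 with the length and GC offsets and 0.63 with no filter on low counts. Gcat, a mitochondrial enzyme of threonine breakdown to glycine, rose from 35.6 ± 4.01 to 91.2 ± 5.84 CPM (log2 fold change 1.36). The glycine cleavage subunits Dld (0.81), shared with the pyruvate and 2-oxoglutarate dehydrogenases, and Gcsh (0.64) rose, and so did the mitochondrial serine transporter Sfxn1 (0.17, or −0.029 with scaling by library totals, adjusted p = 0.64). Its relative Sfxn3 (−0.46) and the aminomethyltransferase Amt (−0.94, from 3.42 to 1.78 CPM) fell. Gldc, the glycine decarboxylase that starts the cleavage reaction, had 0 counts in 5 of the 6 libraries and 2 counts in ASPS-A1 replicate 3, where 3 counts correspond to 0.106 to 0.163 CPM.

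Of the genes listed for the methionine cycle, which carries the folate carbon on to S-adenosylmethionine, all that were called fell except Ahcy. Of 7 tested, 4 fell, 1 rose and 2 did not pass the test, against 33.0% of all genes that fell and 32.4% that rose. Scaling by library totals took their median from −0.26 to −0.46, and 6 then fell, as also with upper-quartile factors. Of all 11686 genes tested, 5454 fell with library totals and 4302 with upper-quartile factors, against 3852 in the main fit. The median of all genes was −0.22 with library totals. Mat2a, which makes S-adenosylmethionine, fell from 47.4 ± 2.39 to 29.4 ± 5.27 CPM (log2 fold change −0.68). Ahcyl2 (−0.44), Mtrr (−0.36), which reactivates methionine synthase, and Mat2b (−0.26) also fell. Mtr, the methionine synthase that joins this cycle to folate, had −0.16 (adjusted p = 0.0778, edgeR). In other edgeR fits it was called as fallen, with library totals (−0.35, adjusted p = 0.00027) and with upper-quartile factors (−0.21, adjusted p = 0.0188). It was also called without ASPS-A1 replicate 3 (−0.23, adjusted p = 0.0219), and it had 0.043 with the length and GC offsets. Ahcy rose from 3.56 to 7.07 CPM, but it has near-identical copies in the mouse genome and its count is uncertain.

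Genes for serine uptake and use moved in both directions. Of 18 tested, 13 rose, 3 fell and 2 did not pass the test, against 32.4% of all genes that rose and 33.0% that fell, with a median of 0.39. With scaling by library totals 7 rose and 5 fell, with a median of 0.19. By that scaling, 2529 of all 11686 genes tested rose and 5454 fell. Cth, the lyase that releases cysteine made from serine and homocysteine, was at 122, 130 and 125 CPM with ASPS-A1 and at 14.5, 12.9 and 11.8 CPM in control (log2 fold change 3.27). Cbs, the enzyme that joins serine to homocysteine before Cth acts, had 1 count in ASPS-A1 replicate 1, 1 in control replicate 3 and 0 in the other libraries. The transporter Slc1a4 (1.51) and the glycine transporter Slc6a9 (1.49) rose from levels of 3.77 and 5.39 CPM. Of the Slc6a9 exon length, 42.3% is shared with Ccdc24 and Gm17114. Serinc5 (−1.14), Serinc3 (−0.19) and the serine palmitoyltransferase subunit Sptlc1 (−0.25, adjusted p = 0.0253) fell. The Sptlc1 call was lost without ASPS-A1 replicate 1 or 2 or control replicate 1 or 3 (adjusted p from 0.055 to 0.0793).

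Of 14 tested genes for ATF4 and its amino acid and stress targets, 10 rose, 1 fell and 3 did not pass the test, with a median of 0.98 and 32.4% of all genes risen. Atf4 itself was at 565, 559 and 550 CPM with ASPS-A1 and at 223, 203 and 171 CPM in control (log2 fold change 1.49 ± 0.07 SE, adjusted p = 4.75e-11, edgeR). Asns, which makes asparagine, was at 546, 543 and 545 CPM with ASPS-A1 and at 203, 194 and 177 CPM in control (1.51). The log2 fold changes of Ddit3 (2.22), Nupr1 (1.89) and Trib3 (1.67) were larger than that of Psph (1.59), and Sesn2 fell (−0.99).

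**Figure D4:**
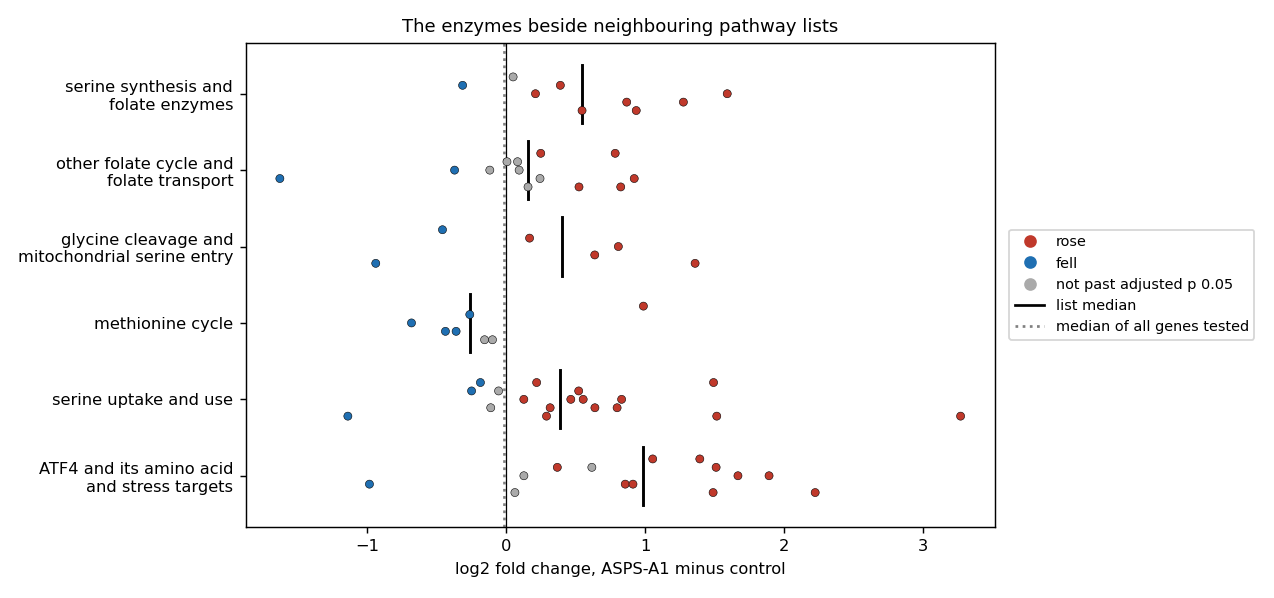
Log2 fold change (x axis, ASPS-A1 minus control) of the 9 enzymes and of the tested members of 5 neighbouring lists, coloured by call, with the list median as a black line and the median of all genes tested as a dotted line. The medians run from −0.26 for the methionine cycle to 0.98 for ATF4 and its targets, with 0.54 for the 9 enzymes.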

How the data were processed

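The deposited table holds whole-number counts per gene symbol, 1 column per library, which the authors made without normalization, and the submitters' processing notes name HTSeq 0.9.1, HISAT2 2.1.0, DESeq 1.38.3 and fastp 0.22.0. No genome build, annotation, strand setting or handling of shared reads is given in the sources used here. Per the labels' protocols, RNA was oligo(dT)-enriched and reverse transcribed with random primers. Titles and column names number the treated libraries ASPS-A1, ASPS-A2 and ASPS-A3, while the treatment label reads ASPS-A1 for each. Libraries were grouped by that label, with the 3 names taken as replicates.

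Genes were kept with filterByExpr (minimum count 10, minimum total 15), leaving 11686 of 22192. Counts were scaled by TMM and tested with the robust quasi-likelihood model of edgeR 4.0.16 in R 4.3.3, calling genes at a Benjamini-Hochberg adjusted p under 0.05 over all tested genes. The SE was taken from the log2 fold change and the square root of its F statistic. The fit was tested on simulated data. No library was a copy of another: within groups, chi-square values of the counts over genes were 4.35 to 7.11 per degree of freedom.

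Transcript lengths, GC content and exon overlap came from GENCODE M21 (95.8% of tested genes had a length). The members, the 5 lists and the promoter motifs were chosen with earlier results of these data known. The text names the 9 members, 11 further pathway genes and up to 3 called genes per list and direction with at least 1 CPM, and others after their values were seen (Slc46a1, Sfxn1, Slc19a1, Atic, Mat2b, Cbs). The result of 1 gene that the rule names is not reported here. Lists are described by counts and medians, with no set test. The alternatives were other scalings, DESeq2 1.42.0, limma-voom (limma 3.58.1), other filters, a library-number block, leaving out each library, thinning, a non-robust fit and per-library lowess offsets (span 0.3) for length and GC content.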

Additional observations from a re-analysis of the deposited data

How the results depend on the processing

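Over 17 other fits, the 7 risen and 1 fallen enzymes kept these counts except with scaling by library totals alone, where 6 rose and 2 fell: Mthfd1l lost its call and Mthfd1 fell (−0.15). With upper-quartile factors Mthfd1 had −0.0043. Leaving out each library in turn gave 7 risen and 1 fallen each time. Library totals also gave 4 fallen genes and a median of −0.039 for the folate list, and 7 risen and 5 fallen genes for serine uptake and use. They gave Sfxn1 −0.029, and 2529 risen and 5454 fallen genes in all, against 3783 and 3852. The folate list had 1 fallen gene with at least 1 CPM in 3 libraries, and 1 to 2 when libraries were left out. With the length and GC offsets Mtr had 0.043 and Slc25a32 0.037. The log2 shift of the ratio ran from 0.80 to 0.91 for Shmt2 to Shmt1, 0.15 to 0.19 for Mthfd1l to Mthfd1 and 1.17 to 1.26 for Mthfd2 to Mthfd1 without each library. The ratios were not refitted with the length and GC offsets. The log2 fold changes of their genes were then 0.46 (Shmt2), −0.34 (Shmt1), 0.29 (Mthfd1l), 1.10 (Mthfd2) and 0.094 (Mthfd1). The cause of these changes was not tested.

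With the replicate number as a block, 7 enzymes rose and 1 fell (Psph 1.59), with 3746 risen and 3807 fallen genes. For replicates 1, 2 and 3, the ASPS-A1 and control deviations correlated at −0.0138, 0.00709 and 0.00398. Across all pairs of an ASPS-A1 and a control library, r ran from −0.041 to 0.040. The control of its own number was the best match for 0 of 3 ASPS-A1 libraries. This check showed no sign of pairing by number, but 3 libraries per group are too few to decide it. Counting error is small for these enzymes, whose lowest value was 357 counts, and limits Slc46a1, Aldh1l1, Gldc and Cbs.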
